A study of Homo sapiens with 18 samples.

Results

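The HOX genes of the 4 human HOX clusters were followed across 18 RNA sequencing libraries of 2 colorectal cancer cell lines. Of the 60642 gene symbols counted, 38 HOX symbols were analysed, and the 32 of these with 10 or more counts in 3 or more libraries were taken as members: 10 of HOXA, 9 of HOXB, 9 of HOXC and 4 of HOXD. HOXB1, HOXD1, HOXD3, HOXD4, HOXD11 and HOXD12 stayed below that minimum, and their highest count in any library was 6. HT-29 iZEB1 is a colorectal adenocarcinoma line carrying a doxycycline (DOX) inducible system for ZEB1, a zinc-finger transcription factor that drives the epithelial-mesenchymal transition. These cells had DOX with the vehicle DMSO, DOX with RepSox, RepSox alone or DMSO alone. SW620, a colorectal cancer line taken from a lymph node metastasis, had RepSox or DMSO and no inducer. RepSox, an inhibitor of the TGF-β type I receptor ALK5, was used at 10 µM over 24 h. DOX was used at 1 µg per ml, for 24 h by the treatment protocol and for 48 h by the series' design text. Each of the 6 groups had 3 libraries, and the labels do not say whether these came from separate cultures, so the p-values rest on the spread among 3 libraries of a group, which may be technical. The labels do not say whether HT-29 iZEB1 was a single clone.

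HOX proteins are homeodomain transcription factors that give cells their position along the body axis. Their genes stand in 4 clusters, numbered by paralogue group: low-numbered genes are used early and towards the head, and high-numbered genes late and towards the tail. The adult colon keeps this code, and its epithelium is known for HOXB genes, HOXA genes of the high-numbered end and HOXB13 in the hindgut. HOX proteins bind DNA together with the TALE homeodomain cofactors of the PBX, MEIS and PKNOX families. Polycomb complexes keep HOX genes silent, MLL (Trithorax) complexes keep them active, and retinoic acid switches on low-numbered members.

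On GRCh38, the HOXA genes analysed lay at chr7:27100354-27200106 (minus strand), the HOXB genes at chr17:48528526-48729178 (minus strand), the HOXC genes at chr12:53938765-54056030 (plus strand) and the HOXD genes at chr2:176092891-176190907 (plus strand), and all members were annotated as protein-coding. RefSeq promoter windows (GRCh38.p14, 250 bases before to 50 bases after a start) were at hand for 14 of the 32 members, in 20 distinct windows. They were searched on both strands for CAGGTG, the E-box that ZEB1 is known to bind, and for TGATTNAT, a motif bound by PBX and HOX proteins together. No match of one overlapped a match of the other. CAGGTG was in 1 of the 20 windows, that of HOXA7, against 20.6% of 35116 RefSeq windows. TGATTNAT was in 1 of the 20, that of HOXA2, against 2.82% of all windows. A match is a string of letters and not a shown binding site, and a window without one says nothing about sequence outside it. Below are the windows of HOXA2 and HOXA7 (the matched ones), HOXA9 and HOXA13 (a pair from 1 cluster that stood on opposite sides when the lines were compared) and HOXC4 (the member with a window that changed most with DOX). Each runs 5′ to 3′ on the gene's own strand, and capitals mark the match, which in HOXA2 (114 bases before the start) and HOXA7 (52 bases before the start) is the reverse complement of the motif.
HOXA2, chr7:27102634-27102933, minus strand: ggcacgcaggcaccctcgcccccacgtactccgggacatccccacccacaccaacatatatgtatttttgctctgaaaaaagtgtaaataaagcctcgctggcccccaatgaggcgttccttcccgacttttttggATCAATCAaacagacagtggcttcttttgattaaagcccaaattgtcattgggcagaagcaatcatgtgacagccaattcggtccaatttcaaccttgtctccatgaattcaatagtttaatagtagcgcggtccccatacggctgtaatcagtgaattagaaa
HOXA7, chr7:27156626-27156925, minus strand: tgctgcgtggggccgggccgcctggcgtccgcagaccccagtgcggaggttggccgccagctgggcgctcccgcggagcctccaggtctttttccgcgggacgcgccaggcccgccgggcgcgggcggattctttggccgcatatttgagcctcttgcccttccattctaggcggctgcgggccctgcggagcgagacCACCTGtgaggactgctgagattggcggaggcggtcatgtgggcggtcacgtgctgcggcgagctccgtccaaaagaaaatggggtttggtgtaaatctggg
HOXA9, chr7:27165488-27165787, minus strand: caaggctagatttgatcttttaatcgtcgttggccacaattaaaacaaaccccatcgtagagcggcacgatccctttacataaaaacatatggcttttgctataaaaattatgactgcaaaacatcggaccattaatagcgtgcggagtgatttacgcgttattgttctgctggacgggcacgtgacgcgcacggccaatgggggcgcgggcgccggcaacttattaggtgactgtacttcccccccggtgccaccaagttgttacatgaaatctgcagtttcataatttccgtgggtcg
HOXA13, chr7:27200042-27200341, minus strand: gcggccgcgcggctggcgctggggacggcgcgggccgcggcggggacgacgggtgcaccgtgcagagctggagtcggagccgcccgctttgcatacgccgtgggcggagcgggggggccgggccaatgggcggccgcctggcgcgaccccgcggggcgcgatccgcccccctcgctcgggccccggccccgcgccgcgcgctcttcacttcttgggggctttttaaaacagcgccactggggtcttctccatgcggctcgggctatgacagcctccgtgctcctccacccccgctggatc
HOXC4, also given for HOXC5, chr12:54016638-54016937, plus strand: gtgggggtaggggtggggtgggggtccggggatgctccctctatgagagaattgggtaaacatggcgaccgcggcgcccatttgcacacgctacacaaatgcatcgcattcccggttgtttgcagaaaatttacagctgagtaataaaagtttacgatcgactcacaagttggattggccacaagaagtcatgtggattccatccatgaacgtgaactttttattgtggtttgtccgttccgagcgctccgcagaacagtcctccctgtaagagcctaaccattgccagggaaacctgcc

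Library totals ran from 36.5 to 39.8 M counts. Gene counts of 2 libraries of a group were compared by chi-square per degree of freedom. DOX and DMSO replicate 2 stood farthest off, with 32.6 and 42.6 against replicates 1 and 3. Between replicates 1 and 3 it was 8.95, and pairs in the other groups ran from 3.93 to 24.1. Levels are given as CPM, which are counts scaled by TMM-adjusted library sizes, and as CPM per kb of exon where genes are compared with each other. ZEB1 stood at 371, 385 and 376 CPM with DOX and DMSO, 14.6, 15.9 and 17.4 CPM with DOX and RepSox, 5.04, 5.38 and 5.73 CPM with RepSox alone and 7.9, 7.38 and 10.4 CPM with DMSO alone. SW620 had 24.6, 23.3 and 23.1 CPM with RepSox and 19.7, 20.4 and 24.4 CPM with DMSO. The libraries labelled DOX and RepSox thus held 23.8-fold less ZEB1 RNA than those with DOX and DMSO, and 2.98-fold more than those with RepSox alone. An effect of RepSox on HOX genes beside DOX therefore cannot be told apart from that of the lower ZEB1 level. The 8 colorectal epithelium markers summed to between 3994 and 10244 CPM over all libraries, most of it KRT8 and KRT18, although CDX1 was at 0 in SW620. Mean levels of KRT20 and CDH17 in SW620 groups did not pass 0.187 and 0.0519 CPM. In HT-29 iZEB1 groups, those of CDX1 and CDX2 did not pass 0.403 and 0.595 CPM. Marker sums of 6 fibroblast, 5 leukocyte and 4 endothelium genes did not pass 12.8, 7.97 and 4.71 CPM in any library.

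HOXB genes made up most of the HOX RNA in every group. Their members summed to 1082 ± 33 CPM with DOX and DMSO, 782 ± 58 CPM with DOX and RepSox, 803 ± 16 with RepSox alone and 779.5 ± 5.5 with DMSO alone in HT-29 iZEB1, and to 356 ± 12 with RepSox and 265 ± 7.6 with DMSO in SW620 (SD, n = 3 each). That was 74.9% to 76.3% of all HOX CPM in HT-29 iZEB1, and 64.1% and 54.3% in SW620 with RepSox and with DMSO. HOXA members summed to 323 ± 20.2, 225 ± 5, 228 ± 2.4 and 238 ± 7.2 CPM in the same 4 HT-29 iZEB1 groups, and to 109 ± 3.4 CPM with RepSox and 116 ± 1.1 CPM with DMSO in SW620. HOXC members were a small part in HT-29 iZEB1 (39.6 ± 2.6, 19.4 ± 1.3, 20.9 ± 1.4 and 20.2 ± 1 CPM), against 79.3 ± 1.7 and 95.6 ± 1.4 CPM in SW620 with RepSox and with DMSO. HOXD members summed to less than 1 CPM in every HT-29 iZEB1 library and to 11.6 ± 2.1 and 12.4 ± 0.11 CPM in SW620 with RepSox and with DMSO. These are bulk libraries, in which fewer cells with a transcript and less of it per cell cannot be told apart.

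**Figure D1:**
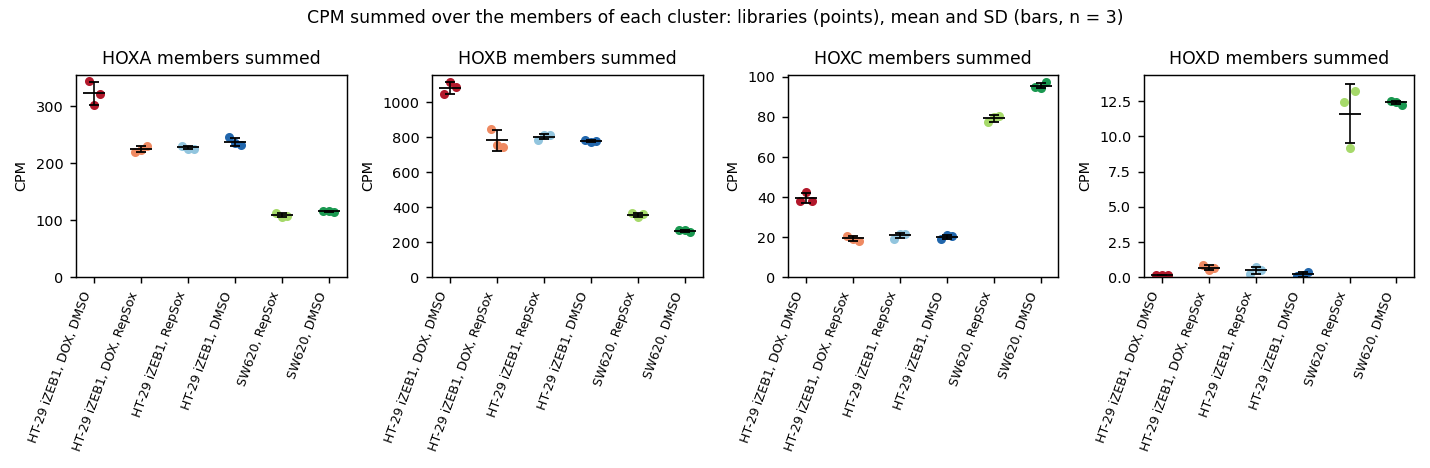
Summed CPM of the HOX members of each cluster in the 6 groups (bars, mean of 3 libraries; error bars, SD; points, libraries). HOXB leads in every group, from 1082 CPM with DOX and DMSO in HT-29 iZEB1 to 265 CPM in SW620 with DMSO, and HOXD is below 1 CPM in HT-29 iZEB1.

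Per kb of exon, HOXB9 was the highest member over the 18 libraries (113 CPM per kb), followed by HOXB8 (48) and HOXB7 (35.5). These 3 are known from the patterning of the trunk. HOXB9 stood at 188 ± 13 CPM per kb with DOX and DMSO, 143 ± 14 when RepSox was added to DOX, 149.7 ± 3.5 with RepSox alone, 153 ± 5.4 with DMSO alone, and 24 ± 0.69 and 22 ± 1.1 in SW620 with RepSox and with DMSO (SD, n = 3 each). It alone held 33.7% to 38.1% of HOX CPM in HT-29 iZEB1 groups, and 11.1% and 11.6% in SW620 with RepSox and with DMSO. In HT-29 iZEB1 with DMSO alone, the levels in rising order were HOXB13 (0.828 CPM per kb), HOXB2 (1.63), HOXB4 (4.54), HOXB3 (14.6), HOXB5 (22.8), HOXB6 (28), HOXB8 (34.9 ± 2), HOXB7 (39.4 ± 2.5) and HOXB9 (153). Apart from HOXB13, this is the chromosomal order but for 2 exchanges, HOXB3 with HOXB4 and HOXB7 with HOXB8. The order depends on the exon lengths used. In CPM, HOXB3 (109) stood next below HOXB9 (395), and HOXB7 (60.3) stood below HOXB6 (72.8) and HOXB8 (71.6). In SW620 with DMSO the rising order was HOXB13 (1.3 CPM per kb), HOXB2 (1.57), HOXB3 (4.38), HOXB4 (6.35), HOXB5 (10.7), HOXB6 (14.1), HOXB7 (17.1), HOXB9 (22) and HOXB8 (28.8).

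In the HOXA cluster, HOXA9, HOXA13 and HOXA11 had the highest mean per kb over the 18 libraries (12.5, 12.3 and 11.4 CPM per kb). HOXA13, the last gene of the cluster and a factor of the hindgut and limb end, stood at 23.7 ± 1.8, 16.5 ± 1.5, 16.4 ± 0.33 and 16.2 ± 0.62 CPM per kb with DOX and DMSO, DOX and RepSox, RepSox alone and DMSO alone, and at 0.43 ± 0.039 and 0.42 ± 0.12 in SW620 with RepSox and with DMSO (SD, n = 3 each). It led its cluster in HT-29 iZEB1 and was among the lowest in SW620. HOXA9, known for its part in leukaemia, went the other way and led its cluster in SW620 (17.1 ± 0.6 with RepSox and 16.7 ± 0.43 with DMSO). Its levels in the same HT-29 iZEB1 groups were 12.9 ± 1.4, 9.07 ± 0.43, 9.5 ± 0.18 and 9.69 ± 0.082 CPM per kb. HOXA11 stood at 17.3 ± 0.53, 12.1 ± 1.2, 12.7 ± 0.18 and 14 ± 0.92 CPM per kb in those groups, and at 5.61 ± 0.72 and 6.69 ± 0.57 in SW620 with RepSox and with DMSO.

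HOXC10, HOXC13 and HOXC6 led the HOXC cluster over the 18 libraries. HOXC10 stood between 0.11 and 0.179 CPM per kb across HT-29 iZEB1 and at 14.2 ± 0.64 and 19.1 ± 0.41 in SW620 with RepSox and with DMSO (SD, n = 3 each). HOXC13, a factor of hair and nail, stood at 3.14 ± 0.13, 2.25 ± 0.052, 2.36 ± 0.27 and 1.95 ± 0.038 CPM per kb in the 4 HT-29 iZEB1 groups, against 7.25 ± 0.23 and 6.54 ± 0.49 in SW620 with RepSox and with DMSO. The lines were close for HOXC6, with 2.09 ± 0.11 and 2.73 ± 0.11 CPM per kb in SW620 with RepSox and with DMSO. In HT-29 iZEB1 it stood at 4.3 ± 0.3, 2.15 ± 0.1, 2.24 ± 0.055 and 2.65 ± 0.25 CPM per kb. Of the HOXD members, HOXD9 was at 5.27 ± 1.1 and 5.39 ± 0.19 CPM per kb in SW620 with RepSox and with DMSO, and at 0.0201 to 0.147 in the HT-29 iZEB1 groups. HOXD8 was at 0.487 ± 0.094 and 0.628 ± 0.092 CPM per kb in SW620 and at no more than 0.0355 in an HT-29 iZEB1 group, and HOXD13 was at no more than 0.139 CPM per kb in all 6 groups.

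**Figure D2:**
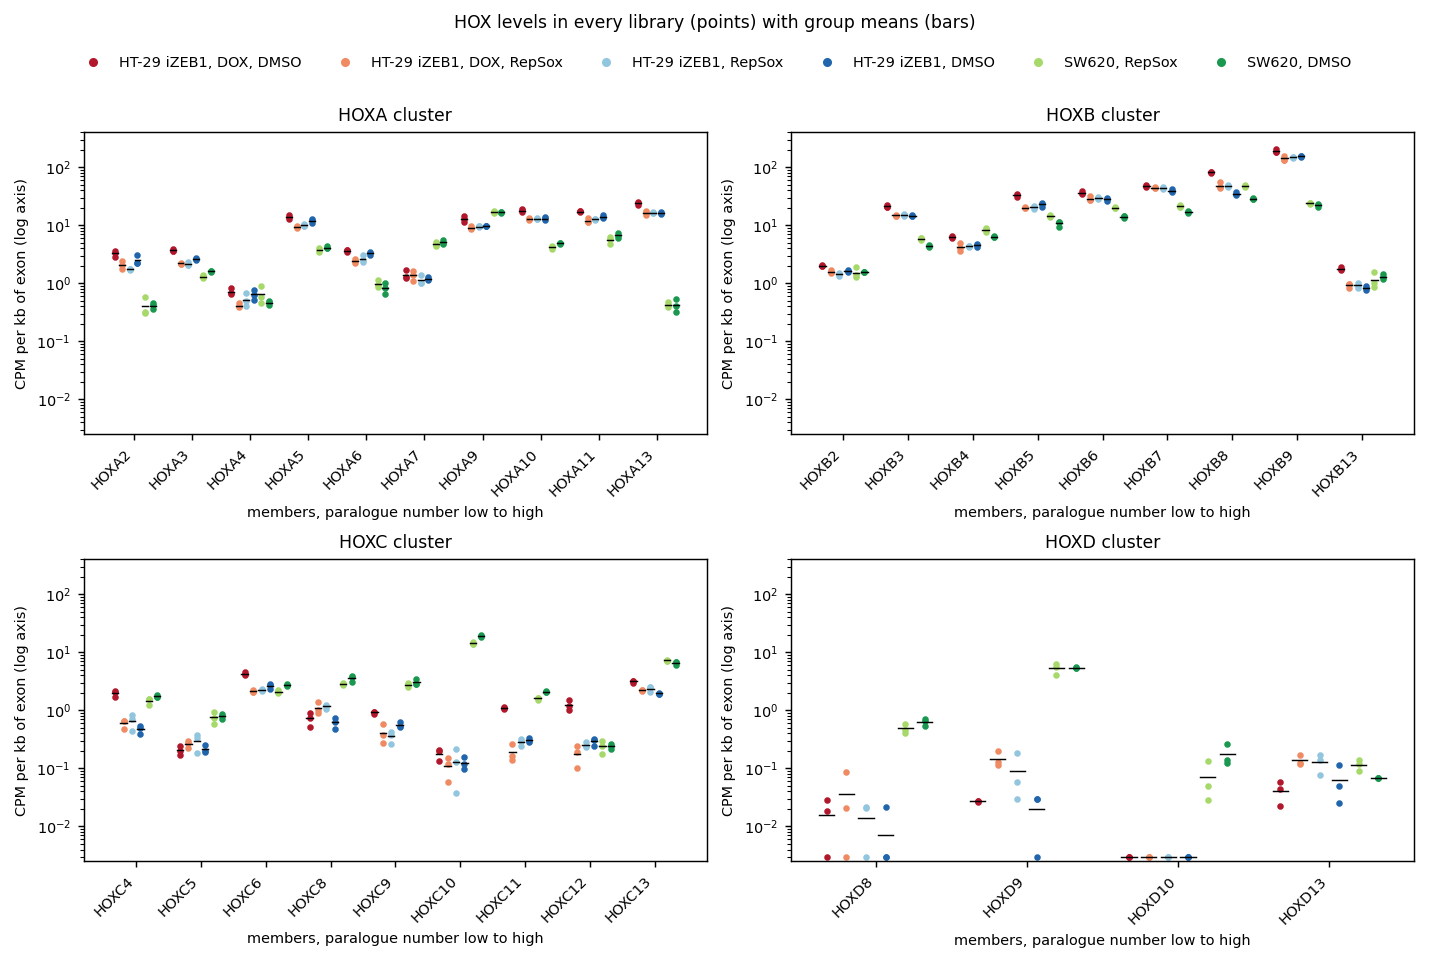
Level of each HOX member in each library (points) and group mean (bars) as CPM per kb of exon on a log axis, by cluster, with a value of 0 drawn at 0.003 CPM per kb. HOXB9 is the highest member in the 12 HT-29 iZEB1 libraries, and HOXA13 is high in HT-29 iZEB1 and low in SW620.

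DOX with DMSO was first compared with DMSO alone in HT-29 iZEB1, the question being what induction changes. HOX genes of 3 clusters rose with DOX: of 29 tested members, 21 were higher, none was lower and 8 did not pass the test (edgeR's quasi-likelihood test with Benjamini-Hochberg adjustment over all genes, adjusted p below 0.05). Over all genes tested, 19.2% were called higher and 40.4% were called in either direction. The members' median log2 fold change was 0.46, against 0 for all genes. At an unadjusted p under 0.05 there were 22 members, all of them higher, and DESeq2 also called none lower. The 21 comprised 7 of 10 HOXA, 8 of 9 HOXB and 6 of 9 HOXC members. The largest folds were those of HOXC12, HOXC4 and HOXC11, which stood at low levels. The epithelium markers moved with DOX as well, with summed levels of 3994 to 4379 CPM with DOX and DMSO and 7766 to 8893 CPM with DMSO alone, and their part in the HOX values was not tested. KRT8 and KRT18 made up most of the sum, and the 8 genes did not move alike: EPCAM stood at 199 ± 10.3 CPM with DOX and DMSO and 654 ± 29 CPM with DMSO alone, while CDH17 stood at 8.42 ± 0.39 CPM with DOX and DMSO and 1.32 ± 0.15 CPM with DMSO alone (SD, n = 3 each). HOXD8, HOXD9 and HOXD10 were too low to test.

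HOXC12 had 3.38, 4.95 and 3.99 CPM with DOX and DMSO, against 1.08, 1.05 and 0.816 CPM with DMSO alone. It was 4.19-fold higher (log2 2.07, SE 0.23, adjusted p = 1.01e-06 by edgeR). HOXC11, next to it, had 3.53, 3.74 and 3.45 CPM with DOX and DMSO and 0.963, 1.1 and 0.929 CPM with DMSO alone. Every DOX library lay above every library with DMSO alone for both genes, and HOXC11 was 3.59-fold higher (log2 1.84, SE 0.21, adjusted p = 9.96e-07 by edgeR). HOXC4, at the other end of the cluster, had 5.56, 5.9 and 4.55 CPM with DOX and DMSO against 1.36, 1.07 and 1.46 CPM with DMSO alone. Again the groups did not overlap, and the difference was 4.11-fold (log2 2.04, SE 0.21, adjusted p = 3.59e-07 by edgeR). In the annotation, 17.8% of HOXC4 exon bases are shared with HOXC5 and HOXC6, so reads there are uncertain.

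Elsewhere in the cluster the change was smaller: the log2 fold changes of HOXC9, HOXC6 and HOXC13 were 0.72, 0.7 and 0.69. HOXC5, HOXC8 and HOXC10 did not pass the test, with log2 fold changes of -0.06 (SE 0.37), 0.24 (SE 0.25) and 0.52 (SE 0.49), and each of these had overlapping groups.

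HOXB8 had 160.3, 172 and 169.9 CPM with DOX and DMSO, against 75.4, 72.1 and 67.3 CPM with DMSO alone. It was the HOXB member with the largest rise, 2.35-fold (log2 1.23, SE 0.078, adjusted p = 3.98e-10 by edgeR), and the groups lay far apart. HOXB13, the hindgut and prostate member that stands away from the rest of its cluster, had 6.17, 6.54 and 5.9 CPM with DOX and DMSO and 2.66, 2.83 and 3.12 CPM with DMSO alone, and was 2.17-fold higher (log2 1.12, SE 0.13, adjusted p = 2.03e-06). HOXB9 had 465, 526 and 468 CPM with DOX and DMSO and 394, 382 and 409.9 CPM with DMSO alone. In HOXB9 the rise was 1.23-fold (log2 0.3, SE 0.07, adjusted p = 0.00179 by edgeR). The remaining called HOXB members were HOXB3, HOXB4, HOXB5, HOXB6 and HOXB7, with log2 fold changes of 0.54, 0.47, 0.55, 0.39 and 0.27. HOXB2 did not pass the test (log2 0.29, SE 0.12, adjusted p = 0.0593 by edgeR), although its groups did not overlap.

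HOXA13 had 129.8, 111 and 121 CPM with DOX and DMSO and 85.6, 79.2 and 82.4 CPM with DMSO alone, 1.47-fold higher (log2 0.55, SE 0.072, adjusted p = 5.75e-06 by edgeR), with no overlap. The other called HOXA members (HOXA2, HOXA3, HOXA5, HOXA9, HOXA10 and HOXA11) had log2 fold changes from 0.24 to 0.5. HOXA4, HOXA6 and HOXA7 did not pass the test (log2 0.17, 0.15 and 0.23). In the annotation 47.3%, 40.1% and 62.5% of the exon bases of HOXA4, HOXA6 and HOXA7 are shared with other genes on either strand, and without a known strand setting these reads cannot be told apart. For HOXA4 31% and for HOXA6 4.44% are shared on the same strand, where the setting would not help. Groups did not overlap for 20 of the 21 called members, HOXA2 being the exception, and for 95.3% of all genes called higher.

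The calls of HOXA2, HOXA5 and HOXC9 did not hold under every setting, although their log2 fold changes stayed at 0.31 to 0.57, 0.17 to 0.31 and 0.67 to 0.79. HOXA2 was lost without DMSO alone replicate 1 or 2 or DOX and DMSO replicate 1 or 3, and in the fit of all 18 libraries, with an adjusted p of at most 0.158. HOXA5 and HOXC9 were lost without DMSO alone replicate 1 or 3 or DOX and DMSO replicate 1 or 3, and with no filter on low counts, with adjusted p of at most 0.15 and 0.0952. Scaled to library totals alone, 22 members were higher, and the split of all called genes moved to 4221 higher and 2877 lower, against 3265 higher and 3588 lower with TMM.

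RepSox in the presence of DOX was set against DOX and DMSO next, which asked what the inhibitor changed in induced cells. HOX members fell nearly as a block. Of 29 tested, 23 were lower, 2 were higher and 4 did not pass the test in the libraries labelled DOX and RepSox (edgeR, adjusted p below 0.05), while 25.5% of all genes were called lower, 26.8% higher and 52.2% in either direction. The members' median log2 fold change was -0.56, against -0.01 for all genes. The lower members were 9 of 10 HOXA, 8 of 9 HOXB and 6 of 9 HOXC. This comparison shares the DOX and DMSO libraries with the previous one, so the values of both are given side by side and not as separate evidence. Of the 21 members higher with DOX in DMSO, 20 were lower here. The epithelium markers summed to 9326 to 10244 CPM with DOX and RepSox and 3994 to 4379 CPM with DOX and DMSO, and their part in the HOX values was not tested. KRT8 and KRT18 again made up most of the sum, and the 8 genes did not move alike. EPCAM stood at 556 ± 14 CPM with DOX and RepSox and 199 ± 10.3 CPM with DOX and DMSO. In the same order, KRT20 stood at 74.3 ± 9 and 102 ± 2.7 CPM and CDH17 at 1.02 ± 0.067 and 8.42 ± 0.39 CPM (SD, n = 3 each).

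HOXC12 fell to 0.339, 0.81 and 0.651 CPM with DOX and RepSox (log2 -2.77, SE 0.25, adjusted p = 3.2e-08 by edgeR). HOXC11 had 0.875, 0.54 and 0.461 CPM with DOX and RepSox, 5.75-fold lower (log2 -2.52, SE 0.22, adjusted p = 2.28e-08). HOXC4 had 1.78, 1.81 and 1.28 CPM with DOX and RepSox, 3.31-fold lower (log2 -1.73, SE 0.21, adjusted p = 1.16e-06). All libraries labelled DOX and RepSox lay below all with DOX and DMSO for these 3 genes. The next falls were those of HOXC9 (log2 -1.19), HOXC6 (-1.01), HOXB13 (-0.96), HOXA4 (-0.81), HOXB8 (-0.79), HOXA3 (-0.76), HOXB5 (-0.73), HOXA2 (-0.66) and HOXA5 (-0.6). HOXB8, with 112, 91.6 and 88.6 CPM under DOX and RepSox, was 1.73-fold lower. The other 11 lower members had log2 fold changes from -0.58 to -0.33, HOXB9 (-0.41) and HOXA13 (-0.54) among them, and groups did not overlap in any of the 23, nor in 92.1% of all genes called lower.

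HOXC8 and HOXD13 were the higher members. HOXC8 had 2.65, 1.89 and 1.68 CPM with DOX and RepSox and 0.99, 1.72 and 1.42 CPM with DOX and DMSO. Its groups overlapped (log2 0.58, SE 0.23, adjusted p = 0.0453 by edgeR). HOXD13, a limb-end factor, had 34 counts over the 3 libraries with DOX and RepSox and 11 with DOX and DMSO (log2 1.71, SE 0.57, adjusted p = 0.0161 by edgeR), with no overlap. HOXA7, HOXB7, HOXC5 and HOXC10 did not pass the test (log2 -0.05, -0.12, 0.35 and -0.71).

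Here 4 calls did not hold under every setting. HOXD13 was lost without DOX and DMSO replicate 1 or DOX and RepSox replicate 3 (adjusted p at most 0.0733), and HOXA4 without DOX and DMSO replicate 1 (adjusted p = 0.0505 by edgeR). HOXC8 was lost without DOX and DMSO replicate 1 or 3, without DOX and RepSox replicate 1 or 2, and on library totals (adjusted p at most 0.233). HOXB2 was lost without DOX and DMSO replicate 1 or 3 or DOX and RepSox replicate 2 or 3, and with no filter on low counts (adjusted p at most 0.128).

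**Figure D3:**
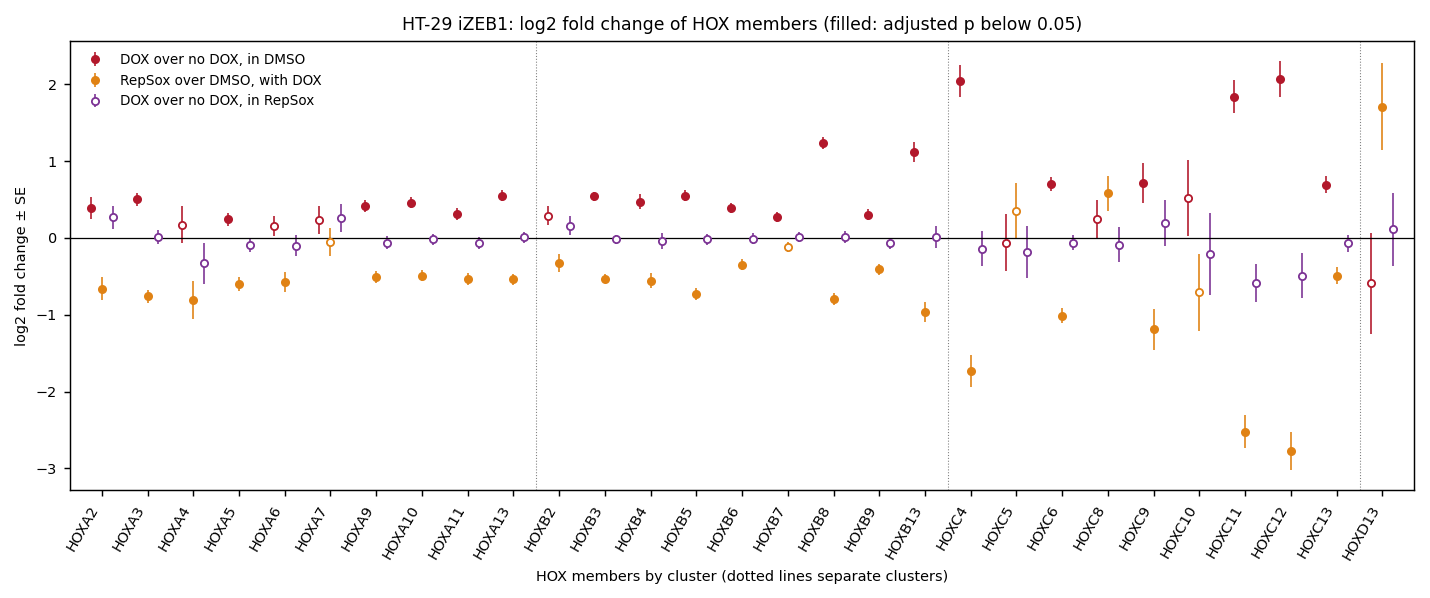
Log2 fold change (± SE) of each tested HOX member in HT-29 iZEB1, filled where the adjusted p was below 0.05. Shown are DOX over no DOX in DMSO, RepSox over DMSO with DOX, and DOX over no DOX in RepSox. The members of HOXA and HOXB lie above 0 with DOX in DMSO and below 0 with RepSox beside DOX, and HOXC4, HOXC11 and HOXC12 lie farthest out on both sides. For DOX in RepSox no member was called, against 0.477% of all genes, and values run from -0.59 to 0.27. The comparisons of DOX in DMSO and of RepSox with DOX share the libraries with DOX and DMSO.

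With RepSox present, few genes passed the test for DOX, and no HOX member did. None of 29 was called with DOX and RepSox against RepSox alone (edgeR, adjusted p below 0.05; DESeq2 also called 0), and 1 had an unadjusted p under 0.05, HOXC11 (log2 -0.59). Of all genes, 0.477% were called (0.0942% higher and 0.383% lower), so that none among 29 members is near the background. DESeq2 called 293 of all 16978 genes. The members' median log2 fold change was -0.04, against 0 for all genes, and their values ran from -0.59 to 0.27. HOXB8 had 112, 91.6 and 88.6 CPM with DOX and RepSox and 97.3, 99.3 and 94.4 CPM with RepSox alone (log2 0.01, SE 0.077). HOXC12 had 0.339, 0.81 and 0.651 CPM with DOX and RepSox and 0.817, 0.776 and 0.951 CPM with RepSox alone (log2 -0.49, SE 0.29). The groups overlapped in both genes. ZEB1 itself differed 2.98-fold between these groups. Without DOX and RepSox replicate 1, 1 member was called lower.

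The difference between the DOX effects with and without RepSox was tested as an interaction. It shares the DOX and DMSO libraries with the comparisons of DOX in DMSO and of RepSox with DOX, so it is not separate evidence. The DOX effect was lower with RepSox in 18 of 29 members and higher in none (edgeR, adjusted p below 0.05), while 9.61% of all genes were called lower, 13% higher and 22.6% in either direction. At an unadjusted p under 0.05 there were 19 members, all lower. The members' median was -0.48, against 0.01 for all genes. The largest differences were in HOXC12 (log2 -2.56, SE 0.38), HOXC11 (-2.43, SE 0.33), HOXC4 (-2.18, SE 0.31), HOXB8 (-1.22, SE 0.11) and HOXB13 (-1.1, SE 0.19), with adjusted p of 6.02e-05, 2.35e-05, 4.48e-05, 1.66e-07 and 0.000348 by edgeR. HOXC6 and HOXC13 followed at -0.76 each, and then HOXB5 (-0.57), HOXB3 (-0.56), HOXA13 (-0.54) and HOXB4 (-0.5). The other 7, HOXA3, HOXA9, HOXA10, HOXA11, HOXB6, HOXB7 and HOXB9, lay between -0.48 and -0.26. On library totals 19 members were called, and the split of all called genes moved to 1826 higher and 2061 lower, against 2202 higher and 1632 lower. HOXA11 was lost without DOX and RepSox replicate 2 (adjusted p = 0.0553 by edgeR) and HOXB7 when any 1 of 8 libraries was left out or no filter on low counts was used (adjusted p at most 0.131).

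RepSox was then compared with DMSO in uninduced HT-29 iZEB1. Few members changed and they went both ways. Of 29 tested, 2 were higher, 3 were lower and 24 did not pass the test (edgeR, adjusted p below 0.05), a share of 17.2% against 25.3% of all genes (12.5% higher and 12.8% lower), so that the share of members called was below the background. Their median log2 fold change was -0.04, against -0.01 for all genes. All 3 lower members were HOXA genes. Called members numbered 3 with no filter on low counts, and also 3 without DMSO alone replicate 1 or 2 or RepSox alone replicate 3.

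HOXA2, a hindbrain and neural crest factor, had 4.17, 4.31 and 4.29 CPM with RepSox alone and 5.41, 5.48 and 7.6 CPM with DMSO alone (log2 -0.54, SE 0.15, adjusted p = 0.0136 by edgeR). HOXA3 and HOXA5 were lower by less (log2 -0.27 each). HOXB8 had 97.3, 99.3 and 94.4 CPM with RepSox alone, above 75.4, 72.1 and 67.3 CPM with DMSO alone (log2 0.43, SE 0.078, adjusted p = 0.00049 by edgeR). HOXC8 had 2.28, 2.39 and 1.96 CPM with RepSox alone and 0.906, 1.38 and 1.21 CPM with DMSO alone, 1.88-fold higher (log2 0.91, SE 0.24, adjusted p = 0.00929). Groups did not overlap in any of these 5 genes, nor in 98.8% of all genes called. Calls of HOXA2 (without DMSO alone replicate 3), HOXC8 (without DMSO alone replicate 1), HOXA3 (without DMSO alone replicate 1 or 2 or RepSox alone replicate 1 or 3) and HOXA5 (without DMSO alone replicate 1 or 2 or RepSox alone replicate 2 or 3) were lost, with adjusted p of at most 0.109, 0.0532, 0.122 and 0.109, and those of HOXA3 and HOXA5 also with no filter on low counts.

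In SW620, the members called with RepSox went in different directions by cluster. All 6 members that were higher belonged to HOXB, and the 5 lower ones were 4 HOXC members and HOXA10. Of the lower ones, the calls of HOXA10, HOXC8 and HOXC11 did not hold under every setting. In all, 11 of 31 tested members were called (edgeR, adjusted p below 0.05), 35.5% against 19.5% of all genes (10.2% higher and 9.24% lower), and HOXD13 was too low to test. The members' median log2 fold change was -0.06, against -0.01 for all genes, with a median of 0.39 in HOXB, -0.27 in HOXC and -0.1 in HOXA. The 6 higher genes, HOXB3 to HOXB8, are the neighbours in the middle of the cluster. In the annotation, HOXB3 shares exon bases with HOXB4 and with HOXB6, all on the minus strand, so reads there are uncertain. The epithelium markers summed to 7982 to 8539.8 CPM in SW620 with RepSox and 5578 to 5937 CPM with DMSO, and their part in the HOX values was not tested. Most of that sum was again KRT8 and KRT18, while EPCAM stood at 321 ± 9.4 CPM with RepSox and 323 ± 5.1 CPM with DMSO, and CDX2 at 7.05 ± 1.4 CPM with RepSox and 9.16 ± 0.52 CPM with DMSO (SD, n = 3 each).

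HOXB8 had 101, 93.5 and 98.8 CPM in SW620 with RepSox, against 59.8, 59 and 58 CPM with DMSO. It was 1.66-fold higher (log2 0.73, SE 0.05, adjusted p = 7.14e-11 by edgeR). HOXB6 had 53.2, 51.4 and 52.6 CPM with RepSox and 37.4, 37.7 and 34.8 CPM with DMSO, 1.43-fold higher (log2 0.52, SE 0.056, adjusted p = 1.77e-07). The groups lay apart in both genes. HOXB3, HOXB4, HOXB5 and HOXB7 were higher as well, with log2 fold changes of 0.42, 0.39, 0.42 and 0.31. HOXB9 (log2 0.12, SE 0.054, adjusted p = 0.117), HOXB2 (-0.05) and HOXB13 (-0.18) did not pass the test by edgeR.

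HOXC10 had 31.9, 32.7 and 34.7 CPM in SW620 with RepSox, below 43.7, 44.1 and 45.5 CPM with DMSO. The groups did not overlap (log2 -0.42, SE 0.058, adjusted p = 6.9e-06 by edgeR). HOXC6, HOXC11, HOXC8 and HOXA10 were lower by log2 values of -0.39, -0.37, -0.34 and -0.23, with adjusted p of 0.00451, 0.0147, 0.0419 and 0.0314 by edgeR. HOXA10 was lost when any 1 of the 6 libraries was left out (adjusted p at most 0.155), HOXC8 when any but SW620 DMSO replicate 2 was (and by DESeq2 and in the fit of all 18 libraries; adjusted p at most 0.212), and HOXC11 without SW620 RepSox replicate 2 or in the fit of all 18 libraries (adjusted p at most 0.0779). The number of lower members thus ran from 3 to 7 over the settings tried, and that of higher members was 6 in each. On library totals, all called genes split into 1355 higher and 2077 lower, against 1754 higher and 1584 lower with TMM.

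The RepSox effect in SW620 was set against that in uninduced HT-29 iZEB1 by a test of the difference. It was higher in SW620 for HOXB3, HOXB4, HOXB5 and HOXB6 and lower for HOXC8 (edgeR, adjusted p below 0.05). That is 5 of 32 members, or 15.6% against 10.4% of all genes (5.39% higher and 4.99% lower), so the share is near the background. HOXB5 differed by a log2 value of 0.57 (SE 0.11, adjusted p = 0.00107), with 0.42 in SW620 and -0.16 in HT-29 iZEB1. HOXB6, HOXB4 and HOXB3 differed by 0.46, 0.44 and 0.38. HOXC8 differed by -1.26 (SE 0.27, adjusted p = 0.00274 by edgeR), with -0.34 in SW620 and 0.91 in HT-29 iZEB1. HOXB8, which was called higher in both lines, differed by 0.29 (SE 0.099, adjusted p = 0.0626), which did not pass the test. The members' median difference was -0.01, against -0.02 for all genes. HOXB4 was lost without DMSO alone replicate 1 or 2, RepSox alone replicate 3, SW620 DMSO replicate 1 or SW620 RepSox replicate 1 or 3 (adjusted p at most 0.0755).

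**Figure D4:**
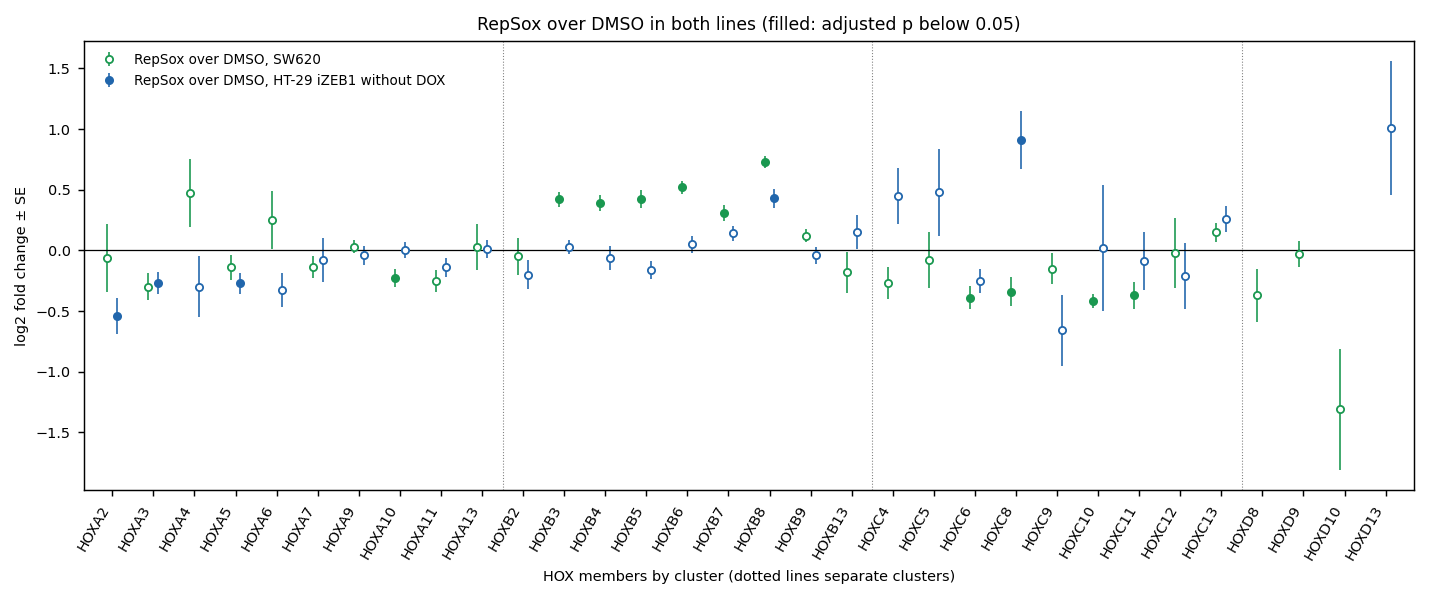
Log2 fold change (± SE) of each tested HOX member for RepSox over DMSO in SW620 and in HT-29 iZEB1 without DOX, filled where the adjusted p was below 0.05. HOXB3 to HOXB8 lie above 0 in SW620 (0.31 to 0.73), and HOXC8 lies at -0.34 in SW620 and at 0.91 in HT-29 iZEB1.

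The lines themselves differed widely at baseline. Of 32 members, 14 were higher and 13 lower in SW620 than in HT-29 iZEB1, both in DMSO, and 5 did not pass the test (edgeR, adjusted p below 0.05). That is 84.4% of members against 76.6% of all genes (40.1% higher and 36.5% lower), so the share is near the background. The members' median log2 fold change was -0.01 and that of all genes 0.06. On library totals the median of all genes moved to 0.18, so that log2 values near 0 depend on the scaling. The clusters went different ways: 7 HOXC and 3 HOXD members were higher and none lower, 6 HOXB members were lower and 2 higher, and 7 HOXA members were lower and 2 higher. HOXD8 and HOXD10 reached the member minimum through SW620 libraries alone (highest HT-29 iZEB1 counts 8 and 0), and HOXD9 mainly so. Their place among the higher members was thus largely set by the member rule and is no separate result.

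HOXD9, a member of the middle of its cluster, had 9.89, 10.5 and 9.85 CPM in SW620, and 4 counts over the 3 libraries of HT-29 iZEB1 (1188 counts in SW620). The difference was 246-fold (log2 7.94, SE 0.37, adjusted p = 2.58e-16 by edgeR). HOXC10 had 43.7, 44.1 and 45.5 CPM in SW620, against 0.368, 0.283 and 0.225 CPM in HT-29 iZEB1, 151-fold higher (log2 7.23, SE 0.19, adjusted p = 2.31e-21). These genes were near the limit of detection in HT-29 iZEB1. HOXD8 had 195 counts in SW620 and 2 in HT-29 iZEB1, a ratio of 88 (95% counting interval 24 to 732). HOXD10 had 56 counts in SW620 and 0 in HT-29 iZEB1, at least 16.8-fold higher with 3 counts over the group as the floor.

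The other higher members were HOXC11 (log2 2.76), HOXC8 (2.53), HOXC9 (2.43), HOXA7 (2.1), HOXC5 (1.89), HOXC4 (1.88), HOXC13 (1.74), HOXA9 (0.79), HOXB13 (0.65) and HOXB4 (0.49). HOXC11 had 6.91, 6.62 and 6.76 CPM in SW620 and 0.963, 1.1 and 0.929 CPM in HT-29 iZEB1. HOXA7 had 12.2, 13.5 and 11.6 CPM in SW620, against 2.77, 2.83 and 3.1 CPM in HT-29 iZEB1, and no library of HT-29 iZEB1 came near those of SW620.

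HOXA13 had the largest fall: 2.78, 2.03 and 1.61 CPM in SW620, against 85.6, 79.2 and 82.4 CPM in HT-29 iZEB1. It was 38.5-fold lower (log2 -5.27, SE 0.12, adjusted p = 8.39e-23 by edgeR). HOXB9 had 57.9, 59 and 53.7 CPM in SW620 and 394, 382 and 409.9 CPM in HT-29 iZEB1, 6.96-fold lower (log2 -2.8, SE 0.069, adjusted p = 8.63e-22). HOXA2 had 1.05, 1.13 and 0.88 CPM in SW620 and 5.41, 5.48 and 7.6 CPM in HT-29 iZEB1, 6.04-fold lower (log2 -2.59, SE 0.2, adjusted p = 1.54e-11). The groups lay apart in all 3 genes. HOXA6 (log2 -1.98), HOXB3 (-1.74), HOXA5 (-1.53), HOXA10 (-1.41), HOXB7 (-1.21), HOXB5 (-1.09), HOXA11 (-1.06), HOXB6 (-0.99) and HOXA3 (-0.71) were lower too, and HOXB8 (-0.28) by the least. HOXA4, HOXB2, HOXC6, HOXC12 and HOXD13 did not pass the test, with log2 fold changes from -0.46 to 0.11.

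**Figure D5:**
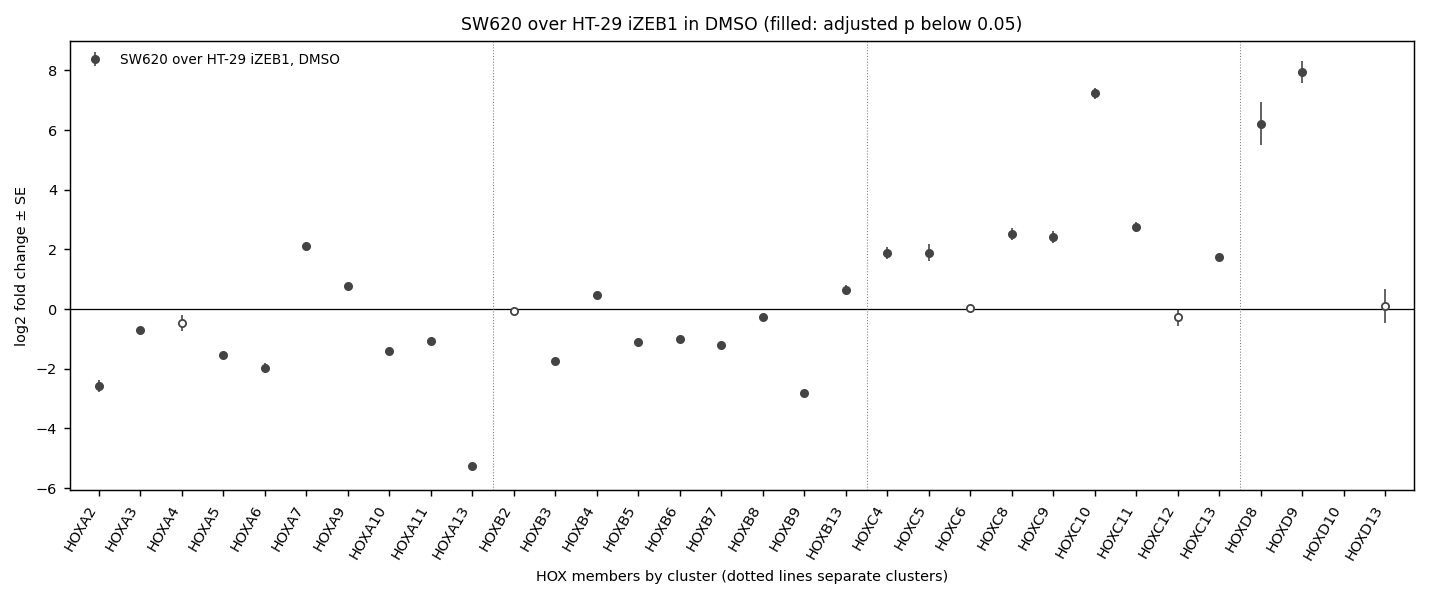
Log2 fold change (± SE) of each HOX member for SW620 over HT-29 iZEB1, both in DMSO, filled where the adjusted p was below 0.05. HOXA13 lies lowest (-5.27) and HOXC10 and HOXD9 highest (7.23 and 7.94); HOXD10 has no point because HT-29 iZEB1 had 0 counts.

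Against HT-29 iZEB1 with DOX and DMSO, SW620 in DMSO was higher in 11 and lower in 18 of 32 members (edgeR, adjusted p below 0.05), 90.6% against 78.5% of all genes (41.6% higher and 36.8% lower). For the 32 members the median log2 fold change was -0.54, against 0.09 for all genes. The SW620 libraries are those of the comparison before. HOXC4 stood at 4.77 ± 0.25 CPM in SW620 and at 5.34 ± 0.7 CPM with DOX (SD, n = 3 each), and its groups overlapped (log2 -0.16, SE 0.16, adjusted p = 0.374 by edgeR). HOXC12 was 5.08-fold lower in SW620 (log2 -2.34, SE 0.23, adjusted p = 1.5e-09 by edgeR), with 0.806 ± 0.073 CPM in SW620 and 4.1 ± 0.79 CPM with DOX (SD, n = 3 each). HOXA13 (log2 -5.82), HOXB9 (-3.1), HOXA2 (-2.98), HOXB3 (-2.27), HOXA6 (-2.13), HOXA10 (-1.87), HOXA5 (-1.77), HOXB5 (-1.63), HOXB8 (-1.51), HOXB7 (-1.48) and HOXB6 (-1.38) were the other large falls. HOXA11, HOXA3, HOXC6, HOXA4, HOXB13 and HOXB2 were lower by log2 values between -1.37 and -0.34. The higher members were HOXD9 (log2 7.55), HOXC10 (6.72), HOXD8 (5.19, with 195 counts in SW620 and 5 with DOX), HOXC8 (2.3), HOXC5 (1.96), HOXA7 (1.87), HOXC9 (1.72), HOXC13 (1.06), HOXC11 (0.92), HOXA9 (0.38) and HOXD10 (at least 18.9-fold, with 3 counts over the group as the floor). Of these, HOXD8 and HOXD10 were members through SW620 libraries alone and HOXD9 mainly so, which largely set their direction beforehand. HOXB4, HOXC4 and HOXD13 did not pass the test. HOXA4 was lost without DOX and DMSO replicate 1 or SW620 DMSO replicate 3 (adjusted p at most 0.0805).

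Transcripts within and beside the clusters were looked at with the members. HOTAIR, a long non-coding RNA on the opposite strand between HOXC11 and HOXC12, had 79.9, 76.4 and 84.1 CPM with DOX and DMSO, 23, 25.6 and 25.3 CPM with DOX and RepSox, 24.5, 21 and 20.7 CPM with RepSox alone and 27.6, 26.9 and 26.4 CPM with DMSO alone. It was higher with DOX in DMSO (log2 1.58, SE 0.076, adjusted p = 9.34e-12 by edgeR) and lower with RepSox beside DOX (log2 -1.71, SE 0.077, adjusted p = 3.13e-12). The libraries with DOX and DMSO lay above all others, those with RepSox alone lay below those with DMSO alone, and SW620 stood lower still (8.98 ± 0.85 CPM with RepSox and 10.1 ± 0.53 CPM with DMSO, SD, n = 3 each). Of the 20 tested genes of this list (26 listed), 8 were higher and 3 lower with DOX in DMSO, and 2 were higher and 11 lower with RepSox beside DOX (median log2 0.38 and -0.43, against 0 and -0.01 for all genes), or 55% and 65% called against 40.4% and 52.2% of all genes. None was called for DOX in RepSox by edgeR at an adjusted p below 0.05, against 0.477% of all genes. At an unadjusted p under 0.05 there were 3. HOTAIRM1, a non-coding transcript of the HOXA cluster, was 1.6-fold higher with DOX in DMSO and 1.93-fold lower with RepSox beside DOX. HAGLROS, a non-coding transcript of the HOXD cluster, went the other way at low levels (log2 -1.86 with DOX and 1.78 with RepSox beside DOX).

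RepSox alone lowered 4 of the 20, HOXA-AS2, HOTAIRM1, HOTTIP and HOTAIR (log2 -0.61, -0.55, -0.51 and -0.3), and raised none, so that 20% were called against 25.3% of all genes. In SW620, RepSox changed 2 of 22 (9.09%, against 19.5% of all genes): HOXB-AS3, which overlaps HOXB5 and HOXB6 on the opposite strand, had 19.9, 20.5 and 19.9 CPM with RepSox and 12.5, 13 and 15.5 CPM with DMSO (log2 0.56, SE 0.082, adjusted p = 1.88e-05 by edgeR), and HOXA11-AS was lower (log2 -0.47). HOXB-AS3 and HOXB3 together share 32.9% of HOXB6 exon bases. Reads of HOXB-AS3 and HOXB6 there cannot be told apart without the strand setting. HOXB3 lies on the same strand as HOXB6 and shares 16.6% of its exon bases, which the setting would not separate. Between the lines, HOTTIP, which starts beside HOXA13 and is known to act on the high-numbered HOXA genes, had 0.153, 0.282 and 0.0503 CPM in SW620 and 19.6, 18.3 and 20.4 CPM in HT-29 iZEB1, both in DMSO (log2 -6.89, SE 0.19, adjusted p = 9.36e-21 by edgeR). In all, 9 of 24 were higher and 13 lower in SW620 in that comparison, 91.7% against 76.6% of all genes.

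Of the TALE cofactors, MEIS3 showed the widest change with DOX in DMSO and with RepSox beside DOX. It had 9.95, 13.1 and 10 CPM with DOX and DMSO, 0.875, 1.03 and 1.36 CPM with DOX and RepSox, 0.732, 0.632 and 0.543 CPM with RepSox alone and 1.84, 1.61 and 1.8 CPM with DMSO alone. The DOX and DMSO libraries of HT-29 iZEB1 lay above its others, 6.3-fold above those with DMSO alone (log2 2.66, SE 0.16, adjusted p = 2.75e-10 by edgeR). Those with DOX and RepSox lay 10.2-fold below those with DOX and DMSO (log2 -3.35, SE 0.18, adjusted p = 2.35e-11 by edgeR). With DOX in DMSO, 4 of 7 tested cofactors were higher and none lower (MEIS3, MEIS1, PBX2 and MEIS2), and with RepSox beside DOX 5 were lower and MEIS2 was higher. That is 57.1% and 85.7% called, against 40.4% and 52.2% of all genes. RepSox alone lowered MEIS3 and PBX3 (log2 -1.47 and -0.25) and raised MEIS2 (0.33), 42.9% against 25.3% of all genes. In SW620 it lowered MEIS1, MEIS3, PBX3 and PBX2 (log2 -0.55, -0.55, -0.54 and -0.29) of 7 tested and raised none (57.1%, against 19.5% of all genes). Between the lines in DMSO, 3 of 7 cofactors were higher and 4 lower in SW620, MEIS2 (12.2-fold lower) and PBX3 (3.76-fold lower) among them, so that all 7 were called where 76.6% of all genes were.

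The ParaHox genes, relatives of HOX genes outside the clusters, were mostly low. CDX2, which sets intestinal identity, had 8.57, 9.55 and 9.37 CPM in SW620 and 0.226, 0.396 and 0.394 CPM in HT-29 iZEB1, both in DMSO (26.8-fold, log2 4.74, SE 0.24, adjusted p = 2.05e-15 by edgeR). It was lower with RepSox in SW620 (log2 -0.38, SE 0.12, adjusted p = 0.0219). With DOX in DMSO 1 of 3 tested ParaHox genes was lower (PDX1, log2 -1.7) and none was higher (33.3% called, against 40.4% of all genes).

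The regulators of HOX chromatin went both ways. With DOX in DMSO 4 of 20 Polycomb genes were higher and 4 lower, with a median log2 fold change of -0.02, and 2 of 15 Trithorax and MLL complex genes were higher and 2 lower, with a median of 0.05 (0 for all genes). The shares called, 40% and 26.7%, were near and below the 40.4% of all genes. PHC1, a subunit of Polycomb repressive complex 1, had 1.93, 2.72 and 4.16 CPM with DOX and DMSO and 1.1, 1.05 and 0.76 CPM with DMSO alone (log2 1.6, SE 0.3, adjusted p = 0.000263 by edgeR). EED, a core subunit of the histone methyltransferase complex, was 1.43-fold lower with DOX, and WDR5, a subunit shared by MLL complexes, was 1.4-fold lower. Beside DOX, RepSox changed 13 of 20 Polycomb genes (5 higher, 8 lower) and 7 of 15 Trithorax genes (3 higher, 4 lower), with PHC1 at log2 -2.1, EED at 0.49 and WDR5 at 0.56. These are 65% and 46.7%, against 52.2% of all genes. In SW620, where 19.5% of all genes were called, RepSox changed 6 of 20 Polycomb genes (2 higher, 4 lower; 30%) and none of the 15 Trithorax genes by edgeR at an adjusted p below 0.05 (1 at an unadjusted p under 0.05).

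Of the retinoic acid genes, which carry the signal that acts on low-numbered HOX genes, 3 of 12 tested were higher and 4 lower with DOX in DMSO (58.3% called, against 40.4% of all genes). ALDH1A1, an enzyme that makes retinoic acid, had 1926, 1768 and 1749.8 CPM with DOX and DMSO and 1285, 1196 and 1251 CPM with DMSO alone (log2 0.55, SE 0.056, adjusted p = 2.72e-07 by edgeR). The receptor RARG (log2 -0.79), the carrier CRABP2 (-0.77) and the enzyme ALDH1A3 (-0.95) were lower. RepSox in SW620 raised 3 of 14, among them RDH10 (log2 0.91), which makes retinaldehyde, and lowered 4 (50% called, against 19.5% of all genes).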

How the data were processed

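Raw read counts, whole and unnormalised, were deposited for each gene symbol. The submitters' processing notes name HISAT2 2.2.0, FastQC 0.11.9, DESeq2 1.34.0, featureCounts 2.0.0 and, as build, GRCh38.p13. Settings, strand and annotation are not given in the sources used. In every library more genes had a count of 2 than of 1, so a fragment may be counted as 2 reads, and counting intervals (Poisson-based, 95%) cover counting error only and are then too narrow.

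Tests ran in R 4.3.3 with edgeR 4.0.16: filterByExpr at a minimum count of 10, TMM scaling, and the quasi-likelihood functions glmQLFit and glmQLFTest, with p adjusted by Benjamini-Hochberg across every gene tested. The 12 HT-29 iZEB1 libraries (16978 genes), the 6 SW620 libraries (17147) and, between lines, all 18 (19107) were fitted. SE is the unshrunken log2 fold change over the square root of F. The script was tested on simulated data. CPM used TMM sizes over 18 libraries, and exon lengths and coordinates came from GENCODE 29, matched by symbol. The RefSeq promoter table held no window for the other members. Alternatives were DESeq2 1.42.0, other scalings, no filter, a replicate block, other library sets and each library left out. In each comparison called members were named, up to 12 in each direction with the largest fold changes, with the 3 highest of each cluster and up to 4 called genes of each other list. The members, the 6 gene lists and the tests were chosen with earlier results of these data known, so they are no independent support. Fits and adjustments include every gene tested, but 1 HOX gene and 2 genes of the other lists are not reported here and stand in no count, median or sum of members or lists.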

Additional observations from a re-analysis of the deposited data

Results flagged for a closer look

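The tested differences between the DOX effects with and without RepSox in HT-29 iZEB1 stood out for 18 of 29 members, all of them negative (log2 units, edgeR, adjusted p below 0.05). Over all genes, 9.61% were called lower, 13% higher and 22.6% in either direction. This test shares the DOX and DMSO libraries with the comparisons of DOX in DMSO and of RepSox with DOX. In HOXC the members called were HOXC12 (-2.56), HOXC11 (-2.43), HOXC4 (-2.18), HOXC6 (-0.76) and HOXC13 (-0.76). In HOXB they were HOXB8 (-1.22), HOXB13 (-1.1), HOXB5 (-0.57), HOXB3 (-0.56), HOXB4 (-0.5), HOXB6 (-0.4), HOXB9 (-0.37) and HOXB7 (-0.26). In HOXA they were HOXA13 (-0.54), HOXA3 (-0.48), HOXA9 (-0.48), HOXA10 (-0.48) and HOXA11 (-0.38). ZEB1 itself differed by -3.9 in this test, and its part in the HOX values cannot be told apart from that of RepSox.

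The tested difference between the RepSox effects of SW620 and uninduced HT-29 iZEB1 stood out for 5 of 32 members: HOXB5 (0.57), HOXB6 (0.46), HOXB4 (0.44), HOXB3 (0.38) and HOXC8 (-1.26). That is 15.6% against 10.4% of all genes (5.39% higher and 4.99% lower), so the share is near the background. RepSox raised the 4 HOXB genes in SW620, and HOXC8 was lower with RepSox in SW620 and higher in HT-29 iZEB1.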

How the results depend on the processing

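Of 141 member calls over the 9 comparisons, 123 held under every alternative tried, 18 were lost in at least 1 and none turned its direction. The counts of called members stayed within 1.5 times their value, with these exceptions. DOX in RepSox gave 1 without DOX and RepSox replicate 1 (0 to 1 with a library left out). RepSox without DOX gave 3 with no filter on low counts and 3 to 7 with a library left out, against 5. The labels do not say whether replicate numbers pair the samples. Deviations of same-numbered libraries from their group means correlated from -0.348 to 0.215, which cannot settle it with 3 libraries per group. With the replicate block, 21 members were called for DOX in DMSO, 25 for RepSox with DOX and 5 for RepSox without DOX. There were 0 for DOX in RepSox and 18 for the interaction. Of 16978 genes, the block gave 6955, 8948, 4446, 109 and 3925 calls in the same order. RepSox in SW620 gave 9 members (HOXA10 and HOXC8 were not among them), while calls over all 17147 genes went from 3338 to 2848. For SW620 against HT-29 iZEB1 without and with DOX, 27 and 29 members were called, and 6 for the difference between the lines. Of 19107 genes, 14625, 14998 and 2084 were called there. On library totals, HOXA sums moved to 218 CPM with DOX and RepSox, 218 with RepSox alone, 231 with DMSO alone and 122 in SW620 with DMSO. HOXB sums moved to 768 CPM with RepSox alone, 754 with DMSO alone and 279.7 in SW620 with DMSO. HOXC sums moved to 81.7 and 101 CPM in SW620 with RepSox and with DMSO, and the HOXD sum to 13 CPM in SW620 with DMSO. With every HOX symbol counted, the HOXD sum was 0.269 CPM with DOX and DMSO and 12.5 CPM in SW620 with DMSO. The HOXD members and HOXC5, HOXC10 and HOXA4 in HT-29 iZEB1 had few counts, which limits what could be detected.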
